A study of Mus musculus with 8 samples.

Results

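Oxidative phosphorylation genes were taken from the raw count table by symbol, as the Nduf, Sdh, Uqcr, Cox4 to Cox8 and Atp5 families of the nuclear genome plus the protein-coding genes of mitochondrial DNA (mt-Nd, mt-Co, mt-Cytb and mt-Atp). Rows whose symbol holds -ps were left out, 9 in all. The rule uses no measured value. It gave 111 of 55421 rows, 98 nuclear and 13 mitochondrial (mt-). The nuclear genes divide into 47 of complex I, 4 of complex II, 8 of complex III, 21 of complex IV and 18 of complex V. The mt- genes divide into 7 of complex I, 1 of complex III, 3 of complex IV and 2 of complex V. A total of 92 nuclear genes and all 13 mt- genes passed the filter on low counts. The 6 that did not were Ndufa11b, Ndufs6b and Cox6c2, which are annotated as processed pseudogenes, Cox6a2, Cox8b, and a second row named Atp5o. Cox8b and that second Atp5o row had 0 counts in every library.

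The libraries came from cultures of undifferentiated spermatogonia (SSC culture), derived from testes of 6-day-old pups in a C57BL/6XDBA/2 F1 hybrid background. The cells grew on a layer of irradiated CF1 mouse embryonic fibroblasts, whose RNA may enter a library, in medium that holds GDNF and bFGF. Cultures were labelled as knockouts of Stra8 (STRA8KO) or of Spo11 (SPO11KO), here Stra8KO and Spo11KO. Each received either vehicle (Veh) or NRRA for 2 days, which is retinoic acid in a medium made of 10% SSC medium and 90% EBSS, a balanced salt solution. Each of the 4 groups held 2 libraries, and no wild-type culture was analysed here. NRRA changes nutrients and retinoic acid, and it also dilutes the other parts of the SSC medium, GDNF and bFGF among them. The parts of these changes cannot be told apart in these libraries. The study's reporting form describes the replicates of its sequencing as independent and biological. The p-values here rest on the spread between libraries of the same group, in an estimate shared by all 4 groups. They therefore do not measure the spread of the compared groups alone. In bulk libraries, fewer cells of a type and less RNA per cell cannot be told apart. Cultures of the 2 genotypes were derived separately, and the number derived per genotype is not given in the sources used here. Genotype therefore cannot be told apart from other differences between the cultures.

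Oxidative phosphorylation makes ATP in the inner mitochondrial membrane. Complex I (NADH dehydrogenase) and complex II (succinate dehydrogenase) pass electrons to coenzyme Q, complex III passes them on to cytochrome c, and complex IV (cytochrome c oxidase) reduces oxygen. Complexes I, III and IV pump protons, and complex V (ATP synthase) uses the gradient to make ATP. Mitochondrial DNA encodes a few core subunits of complexes I, III, IV and V, which are transcribed by the mitochondrial polymerase POLRMT with TFAM, while all other subunits, and the whole of complex II, come from the nucleus. In testis, several complex IV subunits, a cytochrome c (Cyct) and an ADP/ATP carrier (Slc25a31) have paralogs that are mainly expressed in germ cells.

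Some mt- genes have near-identical copies in nuclear DNA, which limits what their counts can show. In the GENCODE M21 annotation of GRCm38, the assembly also called mm10, a row of unprocessed pseudogenes on the minus strand of chromosome 1 repeats the mitochondrial stretch from the end of mt-Co1 to the middle of mt-Nd4. Over the aligned bases, mt-Co2 differed from its copy Gm28661 at 0 of 681 bases, mt-Atp6 from Gm10925 at 0 of 678, mt-Co3 from Gm28437 at 0 of 783 and mt-Nd4l from Gm10222 at 0 of 294. The copy of mt-Nd3 (Gm28438) differed at 1 of 345 bases, the copy of mt-Co1 (Gm29216) at 6 of 492 and the copy of mt-Nd4 (Gm28439) at 0 of 876. Matching stretches of 3 pairs are shown because a read of such a pair that covers no differing base fits both genes. Capitals mark the bases that differ.
mt-Co1, chrM:6381-6470, plus strand: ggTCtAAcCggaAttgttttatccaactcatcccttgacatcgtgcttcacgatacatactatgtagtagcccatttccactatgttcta
Gm29216, chr1:24616108-24616197, minus strand: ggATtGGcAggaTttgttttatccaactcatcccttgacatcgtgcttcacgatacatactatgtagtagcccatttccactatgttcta
mt-Co2, chrM:7013-7102, plus strand: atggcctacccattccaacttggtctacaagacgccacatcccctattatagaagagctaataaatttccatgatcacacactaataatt
Gm28661, chr1:24615476-24615565, minus strand: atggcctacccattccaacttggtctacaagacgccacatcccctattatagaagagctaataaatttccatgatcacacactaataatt
mt-Nd3, chrM:9459-9548, plus strand: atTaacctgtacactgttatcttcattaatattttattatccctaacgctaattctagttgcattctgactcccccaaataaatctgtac
Gm28438, chr1:24613030-24613119, minus strand: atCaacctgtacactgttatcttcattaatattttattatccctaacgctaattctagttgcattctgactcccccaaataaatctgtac
The mt-Co1 pair differs within the opening bases of the copy and is identical over the rest of the stretch, and the mt-Co2 pair shows no capital at all.

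Promoters of 76 of the 97 nuclear symbols were matched in RefSeq (GRCm38.p6), 1 of them by an older name, as windows of 300 bases from 250 before to 50 after the gene start. The exact ETS core CCGGAAG, in either direction, stood in 19 of the 76 (25%), against 9.93% of 27025 genes with such a window. For the NRF1 core GCATGCGC the shares were 15.79% (12 genes) and 3.05%, for the YY1 core AAGATGGC 14.47% (11 genes) and 3.19%, for the ESRRA motif TCAAGGTCA 2.63% (2 genes) and 0.47%, and for the CRE TGACGTCA 5.26% (4 genes) and 2.03%. ETS factors such as GABP, and NRF1, are known activators of respiratory chain genes. Complex V had the ETS core in 6 of 15 matched promoters (40%) and the NRF1 core in 3 (20%). An ETS core can share its last bases with the start of a YY1 core. Matches of both overlapped in 1 of the 130 genes that hold both, which was no member, and no other pair of these motifs overlapped in any window. Stretches of 120 bases that end before the gene start are shown for ATP synthase genes Atp5l and Atp5e and for Uqcr11 of complex III, because each holds an ETS core and that of Atp5l an NRF1 core as well (capitals, on either strand).
Atp5l, chr9:44920873-44920992, minus strand: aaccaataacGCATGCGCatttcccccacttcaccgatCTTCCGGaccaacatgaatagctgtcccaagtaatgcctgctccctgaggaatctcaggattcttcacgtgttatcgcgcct
Atp5e, chr2:174464106-174464225, minus strand: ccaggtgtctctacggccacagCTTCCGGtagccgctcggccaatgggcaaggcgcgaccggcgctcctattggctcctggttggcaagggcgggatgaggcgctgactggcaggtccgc
Uqcr11, chr10:80406831-80406950, minus strand: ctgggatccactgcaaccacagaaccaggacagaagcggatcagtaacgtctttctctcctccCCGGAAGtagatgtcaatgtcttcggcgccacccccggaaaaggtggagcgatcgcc
The Atp5l stretch holds an NRF1 core followed by a reversed ETS core, the Atp5e stretch a reversed ETS core, and the Uqcr11 stretch an ETS core. The full 300-base window of Uqcr11 also holds an NRF1 core, outside the bases shown. A match describes the letters and is not evidence of binding.

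The library totals ranged from 20960794 to 27038868 counts. In Stra8KO, Stra8 had 2 and 0 counts with Veh and 169 and 170 with NRRA. In Spo11KO it had 28 and 12 counts with Veh and 12604 and 16191 with NRRA. Spo11 had 32 and 31 counts (Veh) and 68 and 66 counts (NRRA) in Stra8KO, and 72 and 75 counts (Veh) and 148 and 127 counts (NRRA) in the libraries labelled Spo11KO. Stra8 was thus lower in both Stra8KO libraries than in both Spo11KO libraries of the same medium, as the Stra8KO label implies. Spo11 counts gave no such check, as they were higher in Spo11KO than in Stra8KO in each medium. The deleted part of Spo11 is not given in the sources used here, so the Spo11 knockout rests on the label alone. All 10 germ cell markers and all 16 fibroblast markers were detected. The germ cell markers summed to 0.0720% and 0.0719% of Stra8KO counts with Veh and 0.0839% and 0.0801% with NRRA. In Spo11KO they summed to 0.161% and 0.165% with Veh and 0.195% and 0.200% with NRRA. The fibroblast markers took 2.41% and 2.48% of Stra8KO counts with Veh and 3.94% and 3.91% with NRRA. Their share of Spo11KO counts was 1.39% and 1.39% with Veh and 2.395% and 2.29% with NRRA. The Sertoli cell markers, 4 of 6 tested, were summed in counts scaled to 1e+06 per library (CPM). They came to 316 and 300 CPM in Stra8KO Veh, and 133 and 136 CPM in Stra8KO NRRA. In Spo11KO they came to 170 and 165 CPM with Veh and 74.6 and 78.7 CPM with NRRA. Of the 4 tested, 1 was called higher and 2 lower with NRRA in Stra8KO, and 0 and 2 in Spo11KO. The Leydig and endothelial markers stayed at 8.46 and 12.4 CPM or less in sum. The macrophage markers summed to 52.7 and 49.3 CPM in Stra8KO Veh and 58.6 and 59.2 CPM in Stra8KO NRRA. In Spo11KO they summed to 39.7 and 36.8 CPM with Veh and 44.2 and 40.2 CPM with NRRA. The fibroblast, germ cell, Sertoli cell and macrophage sums thus each moved with both genotype and NRRA. The part of these cell types in the results that follow was not tested.

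Of the 13 mt- genes, 7 were among the most abundant genes of the set and 6 were nearly absent. Counts were scaled by TMM, which equalises the libraries on the bulk of their genes, to CPM, and levels were divided by transcript length to compare genes. On that scale the group means of mt-Co1, mt-Nd1, mt-Cytb, mt-Nd6, mt-Nd5, mt-Nd2 and mt-Nd4 lay between 776 and 5380 CPM per kb. The group means of mt-Co2, mt-Co3, mt-Atp6, mt-Atp8, mt-Nd4l and mt-Nd3 lay between 3.95 and 31.7 CPM per kb. The low genes lie next to each other on mitochondrial DNA, from mt-Co2 (chrM:7013-7696) through mt-Atp8, mt-Atp6, mt-Co3 and mt-Nd3 to mt-Nd4l (chrM:9877-10173), which is the repeated stretch shown above. Of the 100-base windows of mt-Co2, mt-Atp6, mt-Co3, mt-Nd3 and mt-Nd4l, 97.6% to 99.9% also occur in another annotated gene, against 60.8% for mt-Nd4, 30.8% for mt-Co1, 3.2% for mt-Nd2 and 0% for mt-Nd1, mt-Nd5, mt-Nd6 and mt-Cytb. In this search the exception is mt-Atp8, with 0% of its windows shared. It lies between mt-Co2 and mt-Atp6 and overlaps mt-Atp6 by 43 bases. Only annotated genes were searched. The copies of its neighbours, Gm28661 (chr1:24614885-24615565) and Gm10925 (chr1:24613974-24614651), flank bases of chromosome 1 that were not compared where they are unannotated. The 0% therefore does not show that mt-Atp8 lacks a nuclear copy. Whether reads that fit several places were counted is not given in the sources used here, and the part of the copies in these low counts was not tested. The 6 low genes held 0.189% to 0.375% of all mt- counts. Among tested nuclear members the largest shared proportions were 100% for Ndufb4c, annotated as a processed pseudogene, and 33.4% for Ndufb4, so the counts of this pair are uncertain too.

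**Figure D1:**
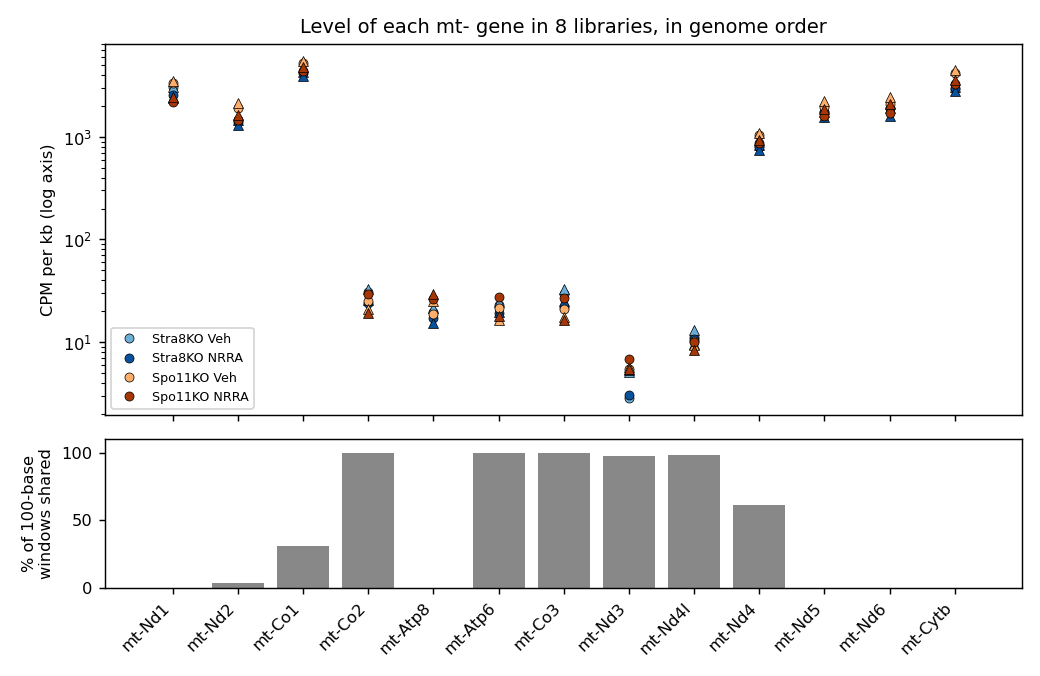
Upper panel: level of each mt- gene in CPM per kb of transcript (log axis) in all 8 libraries, circles for replicate 1 and triangles for replicate 2, with genes in their order on mitochondrial DNA. Lower panel: percent of 100-base windows of each gene that also occur in another annotated gene. The 6 genes from mt-Co2 to mt-Nd4l lie far below the others, and 5 of them share 97.6% to 99.9% of their windows.

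NRRA lowered mt-Nd1 in Stra8KO and 5 mt- genes in Spo11KO, and none was called higher. Tests used edgeR's quasi-likelihood method with Benjamini-Hochberg adjustment over 20588 genes, with calls made where the adjusted p was below 0.05. In Stra8KO, 0 mt- genes were called higher and 1 lower, at a median log2 fold change of -0.132, where 41.9% of all tested genes were called (21.6% higher and 20.2% lower) and the median of all genes was 0.0135. In Spo11KO, 0 were higher and 5 lower at a median of -0.234, where 49.9% of all genes were called (24.5% higher and 25.5% lower) and the median was 0.0132. When libraries were scaled by their total counts instead, the 5 lower calls in Spo11KO were joined by 1 higher call, and the median of all genes moved by 0.0915. The shares of all genes called under total counts were not counted, so splits under that scaling have no background, here or in what follows. Without Spo11KO NRRA replicate 2, 3 mt- genes were called higher and 5 lower in Spo11KO. The median in Stra8KO rested on single libraries: it was -0.271 without Stra8KO Veh replicate 1 and -0.253 without Stra8KO NRRA replicate 1, so the medians of the 2 genotypes are not shown to differ. The 6 mt- genes with over 50% of their windows unshared and a level above the low group, mt-Nd1, mt-Nd2, mt-Nd5, mt-Nd6, mt-Cytb and mt-Co1, had medians of -0.109 in Stra8KO and -0.310 in Spo11KO. The first ran from -0.181 without Stra8KO NRRA replicate 1 to -0.021 without replicate 2, and the second from -0.430 to -0.235 over single libraries.

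The gene called lower in both genotypes was mt-Nd1, a core subunit of complex I (chrM:2751-3707). Its level was 2897 and 2942 CPM in Stra8KO Veh, 2437 and 2290 CPM in Stra8KO NRRA, 3201 and 3383 CPM in Spo11KO Veh, and 2089 and 2328 CPM in Spo11KO NRRA. The NRRA libraries lay below the Veh libraries in each genotype without overlap, with log2 fold changes of -0.30 ± 0.04 (SE; edgeR adjusted p = 4.8e-07) and -0.58 ± 0.04 (adjusted p = 1.6e-12). For mt-Cytb, the mt- subunit of complex III, the levels were 3359 and 3493 CPM in Stra8KO Veh, 3403 and 3182 CPM in Stra8KO NRRA, 4793 and 5125 CPM in Spo11KO Veh, and 3709 and 4111 CPM in Spo11KO NRRA. In Spo11KO it fell by 0.34 ± 0.05 on the log2 scale (edgeR adjusted p = 3e-06), and in Stra8KO the groups overlapped, with a value of -0.06 (adjusted p = 0.34). The catalytic subunit of complex IV, mt-Co1 (chrM:5328-6872), had 6613 and 6561 CPM in Stra8KO Veh, 6485 and 6075 CPM in Stra8KO NRRA, 8127 and 8498 CPM in Spo11KO Veh, and 6810 and 7330 CPM in Spo11KO NRRA. It fell by 0.23 ± 0.03 in Spo11KO (edgeR adjusted p = 1e-07) and gave -0.07 in Stra8KO (adjusted p = 0.099).

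The complex I subunits mt-Nd2 and mt-Nd4 were also lower with NRRA in Spo11KO, by log2 fold changes of -0.38 ± 0.08 and -0.26 ± 0.04 (edgeR adjusted p = 0.0056 and 2.7e-08). Their values in Stra8KO were -0.12 and -0.08 and were not called. The remaining high mt- genes, mt-Nd5 (2815 to 4072 CPM) and mt-Nd6 (833 to 1263 CPM), were called in none of the comparisons. They lie end to end on opposite strands and overlap by 14 bases. Among the low genes, mt-Co2 was at 13.1 to 22.4 CPM, mt-Co3 at 12.8 to 25.7 CPM, mt-Atp6 at 11.2 to 18.6 CPM, mt-Nd4l at 2.46 to 3.93 CPM and mt-Nd3 at 0.984 to 2.39 CPM, and none of these was called. The ATP synthase subunit mt-Atp8 was at 4.03 and 4.38 CPM in Stra8KO Veh, 3.48 and 3.09 CPM in Stra8KO NRRA, 3.83 and 5.09 CPM in Spo11KO Veh, and 5.36 and 5.94 CPM in Spo11KO NRRA. Its NRRA effects of -0.35 and 0.35 were not called, and its level under NRRA was lower in Stra8KO, with a log2 difference of -0.79 ± 0.18 (edgeR adjusted p = 0.00013), which makes it the only mt- gene of the low group called in a comparison of 2 groups.

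The mt- genes together took a larger share of counts in Spo11KO than in Stra8KO. In Stra8KO the share was 1.86% and 1.89% with Veh, and 1.80% and 1.67% with NRRA. In Spo11KO it was 2.49% and 2.66% with Veh, and 2.10% and 2.31% with NRRA. All 4 Spo11KO libraries lay above all 4 Stra8KO libraries, and within each genotype both NRRA libraries lay below both Veh libraries. The nuclear genes held 0.659% and 0.668% of Stra8KO counts with Veh and 0.593% and 0.614% with NRRA, and 0.712% and 0.680% of Spo11KO counts with Veh and 0.670% and 0.641% with NRRA. Here too both NRRA libraries lay below both Veh libraries of the same genotype. Both Spo11KO libraries lay above both Stra8KO libraries in each medium, and the genotypes overlapped only across media. The log2 ratio of mt- to nuclear counts, which does not depend on how libraries are scaled, was 1.499 and 1.4996 for Stra8KO with Veh, and 1.599 and 1.44 with NRRA. For Spo11KO it was 1.81 and 1.97 with Veh, and 1.65 and 1.85 with NRRA. The ratio was higher in every Spo11KO library than in every Stra8KO library, and the media overlapped within each genotype. With the 5 mt- genes that share no or few windows with other genes (mt-Nd1, mt-Nd2, mt-Nd5, mt-Nd6 and mt-Cytb), the ratio for Stra8KO was 0.774 and 0.786 with Veh, and 0.861 and 0.687 with NRRA. For Spo11KO it was then 1.078 and 1.265 with Veh, and 0.861 and 1.095 with NRRA. The genotypes then stayed apart in Veh and met at 0.861 in NRRA. These sums over members were not tested.

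**Figure D2:**
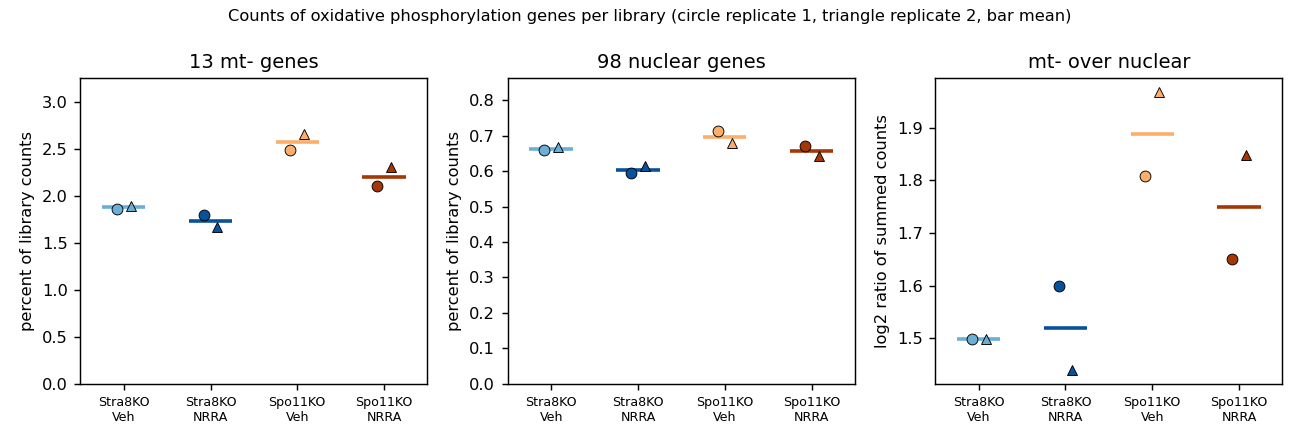
Percent of library counts in the 13 mt- genes (left), in the 98 nuclear genes (middle), and the log2 ratio of the summed counts (right) for the 8 libraries by group, with circles for replicate 1, triangles for replicate 2 and bars for group means. The 4 Spo11KO libraries lie above the 4 Stra8KO libraries in the left and right panels. In the middle panel they lie above the Stra8KO libraries of the same medium and overlap with those of the other medium.

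Nuclear oxidative phosphorylation genes were called lower more often than higher with NRRA, by small amounts. In Stra8KO, 6 of 92 tested genes (6.52%) were higher and 29 (31.5%) lower, against 21.6% and 20.2% of all genes, at a median log2 fold change of -0.110. In Spo11KO, 9 (9.78%) were higher and 39 (42.4%) lower, against 24.5% and 25.5% of all genes, at a median of -0.115. The median in Stra8KO was -0.067 without Stra8KO Veh replicate 2, and over single libraries the falls numbered 21 to 37 in Stra8KO and 28 to 43 in Spo11KO, against 3 to 8 and 4 to 10 rises. Under scaling by total counts the split in Stra8KO was again 6 higher and 29 lower, while in Spo11KO it became 18 higher and 22 lower, so the excess of falls in Spo11KO is relative to the bulk of genes. The shares of all genes higher and lower under total counts were not counted. Measured from the median of all genes, the nuclear median was -0.123 in Stra8KO and -0.128 in Spo11KO, the same under both scalings. A total of 18 members, mt-Nd1 among them, were called lower in both genotypes and 1, Cox6b2, higher in both. The share of all genes called alike in both genotypes was not counted, so these numbers have no background. The changes were small, and 2 nuclear genes in Stra8KO and 6 in Spo11KO were called with a change of 1.5-fold or more. Among all 20588 tested genes, 3673 in Stra8KO and 4408 in Spo11KO were called with such a change. Beside these values, 11 of 16 fibroblast markers were higher and 4 lower with NRRA in Stra8KO, and 12 and 4 in Spo11KO, while of 10 germ cell markers 6 were higher and 0 lower in Stra8KO, and 7 and 1 in Spo11KO. Their part in the NRRA results was not tested.

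Complex V had the largest share of called falls among the complexes in both genotypes, while 21.6% of all genes were higher and 20.2% lower with NRRA in Stra8KO, and 24.5% and 25.5% in Spo11KO. Of its 17 tested nuclear genes, 0 rose and 10 fell (58.8%) in Stra8KO (median -0.163), and 0 rose and 13 fell (76.5%) in Spo11KO (median -0.311, and -0.203 without Spo11KO Veh replicate 1). Under scaling by total counts, 10 fell in each genotype and 0 rose. Complex III had 0 higher and 4 lower (50%) of 8 in each genotype, with medians of -0.170 in both, and under total counts 1 higher and 3 lower in Spo11KO. In Stra8KO its median was -0.102 without Stra8KO NRRA replicate 1, and 6 of its 8 genes were lower without replicate 2, a larger share than that of complex V. Complex I had 2 higher and 8 lower (17.8%, below the share of all genes) of 45 in Stra8KO, and 4 higher and 14 lower (31.1%) in Spo11KO, which turned to 11 higher and 5 lower under total counts. Its falls numbered 4 in Stra8KO without Stra8KO Veh replicate 1, and 9 in Spo11KO without Spo11KO Veh replicate 1 or Spo11KO NRRA replicate 2. Complex IV had 4 higher (22.2%) and 6 lower (33.3%) of 18 in each genotype, and 5 higher and 3 lower in Spo11KO under total counts. In complex II, Sdhc, a membrane anchor, fell by 0.13 ± 0.05 in Stra8KO and 0.28 ± 0.05 in Spo11KO (edgeR adjusted p = 0.034 and 5e-06). The call for Sdhc in Stra8KO was lost without Stra8KO Veh replicate 1 (-0.14, adjusted p = 0.11), without Stra8KO Veh replicate 2 (-0.13, 0.15) and without Stra8KO NRRA replicate 1 (-0.08, 0.33). The other subunits of complex II moved little with NRRA: Sdhb, the iron-sulfur subunit, fell by 0.20 ± 0.05 in Spo11KO (edgeR adjusted p = 0.0009; -0.11 and 0.072 under total counts), Sdha, the flavoprotein, gave 0.13 ± 0.04 there, and Sdhd was called in neither genotype. Among nuclear counts, complex V took 38.7% and 38.4% in Stra8KO Veh and 36.3% and 35.8% in Stra8KO NRRA. For Spo11KO its share was 38.6% and 39.0% with Veh and 34.4% and 34.6% with NRRA, while the share of complex I moved from 26.8% to 27.3% over the Veh libraries to 28.4% to 29.5% over the NRRA libraries. The share of complex IV moved likewise, from 18.7% to 19.6% over the Veh libraries to 20.1% to 20.6% over the NRRA libraries. These shares within the nuclear set do not depend on library scaling. NRRA and Veh libraries did not overlap for complexes V, I and IV. The share of complex II was higher with NRRA within each genotype, also without overlap.

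**Figure D3:**
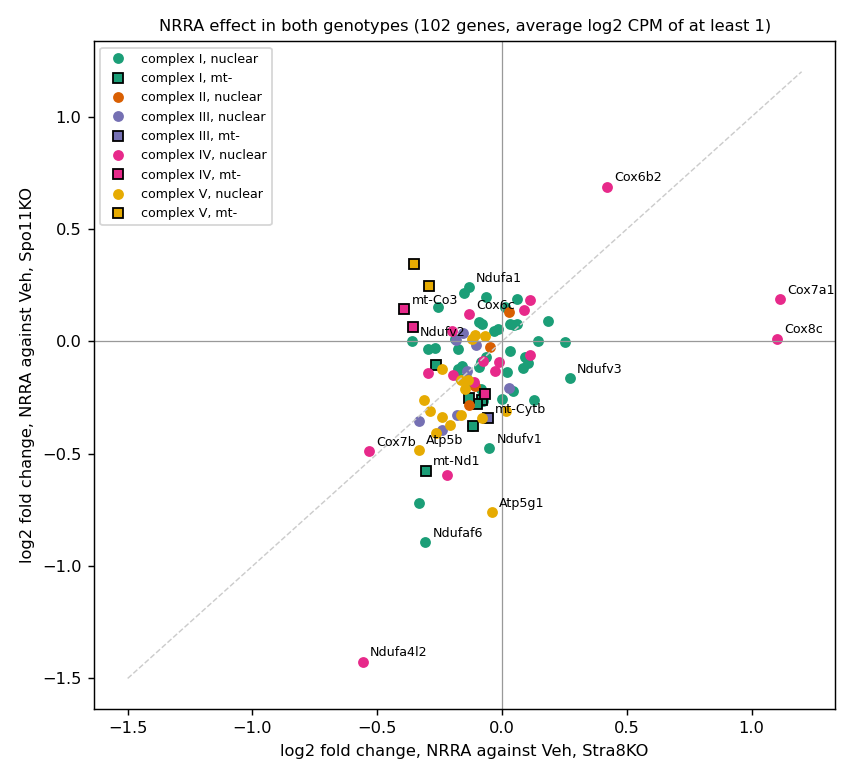
Log2 fold change of NRRA against Veh in Stra8KO (horizontal) and Spo11KO (vertical) for the 102 tested members whose average log2 CPM is 1 or more, coloured by complex, with squares for mt- genes and a dashed line where both effects are equal. A total of 56 points lie below 0 on both axes, a number without a count over all genes beside it. Cox6b2 is the called gene that lies high on both.

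The catalytic beta subunit of ATP synthase, Atp5b (chr10:128083273-128090391), is the most counted nuclear member of complex V. Its level was 905 and 871 CPM in Stra8KO Veh, 715 and 693 CPM in Stra8KO NRRA, 867 and 849 CPM in Spo11KO Veh, and 614 and 615 CPM in Spo11KO NRRA. NRRA and Veh did not overlap in either genotype, and the log2 fold changes were -0.33 ± 0.03 (edgeR adjusted p = 1.6e-11) and -0.48 ± 0.03 (adjusted p = 7.6e-17). The alpha subunit Atp5a1, the gamma subunit Atp5c1, and Atp5h and Atp5o of the stalk fell in both genotypes as well. Their log2 fold changes were -0.24, -0.29, -0.27 and -0.16 in Stra8KO, and -0.34, -0.31, -0.41 and -0.33 in Spo11KO. Atp5d and Atp5e, the delta and epsilon subunits of the rotor, fell in Spo11KO by 0.34 ± 0.04 and 0.31 ± 0.08 and gave -0.08 and 0.01 in Stra8KO. Atp5j2, Atp5mpl and Atp5g2 were called in neither genotype. The ATP synthase inhibitor Atpif1, which is outside the symbol rule, had 81.2 and 78.4 CPM in Stra8KO Veh, 63.3 and 64.8 CPM in Stra8KO NRRA, 80.9 and 77.9 CPM in Spo11KO Veh, and 58.2 and 55.9 CPM in Spo11KO NRRA. It fell by 0.32 ± 0.05 and 0.48 ± 0.05 (edgeR adjusted p = 2e-06 and 4.8e-11), alongside the subunits.

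The c ring of ATP synthase is built from copies of a single protein that several genes encode, and NRRA did not move these genes alike. Atp5g1 (chr11:96068852-96075670) had 70.4 and 73.8 CPM in Stra8KO Veh, 64.5 and 75.4 CPM in Stra8KO NRRA, 83.8 and 77.8 CPM in Spo11KO Veh, and 48.3 and 47.2 CPM in Spo11KO NRRA. The Stra8KO groups overlapped (-0.04 ± 0.06), the Spo11KO groups stood apart (-0.76 ± 0.06, edgeR adjusted p = 1.8e-15), and the effects differed by 0.72 ± 0.08 (edgeR interaction, adjusted p = 1.7e-09). Atp5g3 had 127 and 134 CPM in Stra8KO Veh, 111 and 115 CPM in Stra8KO NRRA, 103 and 106 CPM in Spo11KO Veh, and 85.0 and 77.1 CPM in Spo11KO NRRA. It fell with NRRA in both, by 0.21 ± 0.05 and 0.37 ± 0.05 (edgeR adjusted p = 0.00036 and 7.9e-09). Atp5g2 lay between 34.9 and 44.0 CPM, and its NRRA values of -0.12 ± 0.07 and 0.01 ± 0.06 were not called.

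**Figure D4:**
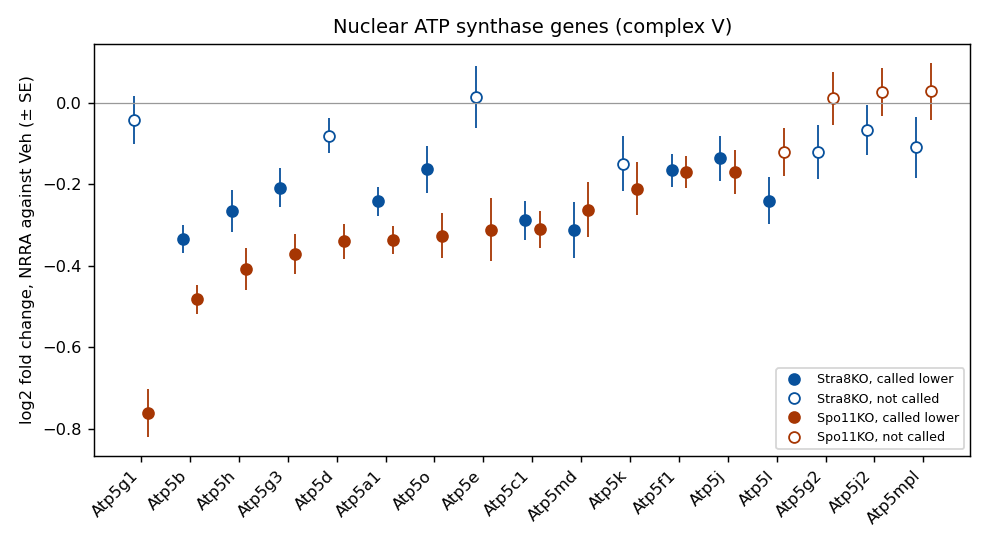
Log2 fold change of NRRA against Veh with its SE for the 17 tested nuclear genes of complex V, in Stra8KO (blue) and Spo11KO (brown), filled where called and open where not. The filled points, 10 in Stra8KO and 13 in Spo11KO, all lie below 0, and Atp5g1 in Spo11KO lies lowest.

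Several complex IV subunits have a widely expressed gene and a paralog restricted to certain tissues, and these pairs did not move as blocks. Cox6b1, the common form, had 128 and 130 CPM in Stra8KO Veh, 109 and 116 CPM in Stra8KO NRRA, 109 and 106 CPM in Spo11KO Veh, and 100 and 94.6 CPM in Spo11KO NRRA. Its testis paralog Cox6b2 (chr7:4751792-4753094) had 25.5 and 26.7 CPM in Stra8KO Veh, 34.8 and 35.1 CPM in Stra8KO NRRA, 12.8 and 11.2 CPM in Spo11KO Veh, and 19.4 and 19.3 CPM in Spo11KO NRRA. All 4 groups of Cox6b2 stood apart, and NRRA raised it by 0.42 ± 0.08 in Stra8KO and 0.69 ± 0.09 in Spo11KO (edgeR adjusted p = 1.3e-05 and 6.5e-09). Cox6b1 fell with NRRA in Stra8KO, by 0.20 ± 0.05 (adjusted p = 0.0005). In Spo11KO it gave -0.15 ± 0.05 (adjusted p = 0.0065), a call that was lost under total counts (-0.06, adjusted p = 0.33), without Spo11KO Veh replicate 1 (-0.13, 0.052) and without Spo11KO NRRA replicate 2 (-0.12, 0.068). Per kb of transcript, Cox6b1 was at 158 to 209 CPM per kb over the group means and Cox6b2 at 20.5 to 59.7 CPM per kb, so the common form was the more abundant in every group.

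Cox7b on the X chromosome (chrX:106015700-106022450) had the largest called fall with NRRA among nuclear genes in Stra8KO. Its level was 75.5 and 78.6 CPM in Stra8KO Veh, 52.7 and 53.7 CPM in Stra8KO NRRA, 47.7 and 42.5 CPM in Spo11KO Veh, and 34.0 and 30.5 CPM in Spo11KO NRRA, and the groups did not overlap within either genotype or medium. With NRRA it fell by 0.53 ± 0.06 and 0.49 ± 0.07 (edgeR adjusted p = 1.9e-10 and 1.1e-08). Its paralog Cox7b2 was at 5.94 to 6.23 CPM in Stra8KO and 10.1 to 11.1 CPM in Spo11KO, with NRRA values of -0.01 and -0.09 that were not called. Cox8c, the testis form of subunit VIII, had 1.07 and 0.705 CPM in Stra8KO Veh, 1.93 and 1.94 CPM in Stra8KO NRRA, 3.58 and 2.87 CPM in Spo11KO Veh, and 3.20 and 3.31 CPM in Spo11KO NRRA. NRRA raised it by 1.10 ± 0.30 in Stra8KO (edgeR adjusted p = 0.0026), a call lost without Stra8KO Veh replicate 2 (0.85, adjusted p = 0.063), and gave 0.01 in Spo11KO. Cox7a1, the muscle form of subunit VIIa, rose by 1.11 ± 0.31 in Stra8KO at levels of 0.906 to 2.49 CPM there (edgeR adjusted p = 0.0032), and this call too was lost without Stra8KO Veh replicate 2 (0.93, adjusted p = 0.053). Ndufa4l2, a paralog of the complex IV subunit Ndufa4, had 1.16 and 1.06 CPM in Stra8KO Veh, 0.579 and 0.923 CPM in Stra8KO NRRA, 5.69 and 4.18 CPM in Spo11KO Veh, and 2.12 and 1.57 CPM in Spo11KO NRRA. It fell in Spo11KO by 1.43 ± 0.22 (edgeR adjusted p = 3.5e-07) and gave -0.56 in Stra8KO (adjusted p = 0.23). Cox7a2, the common form of subunit VIIa, fell by 0.30 ± 0.06 in Stra8KO (edgeR adjusted p = 0.0002) and gave -0.14 in Spo11KO, and its relative Cox7a2l, which helps to join complexes III and IV, gave 0.11 and rose by 0.19 ± 0.05 in Spo11KO (adjusted p = 0.0014). Cox6c and Cox6a1 gave -0.13 and 0.11 in Stra8KO and 0.12 and -0.06 in Spo11KO, and these small values crossed the threshold with single libraries: the call for Cox6c in Stra8KO was lost without each of its 4 libraries in turn (-0.15 to -0.12), and that in Spo11KO without Spo11KO Veh replicate 2 (0.05) or Spo11KO NRRA replicate 1 (0.07), while the call for Cox6a1 in Stra8KO was lost without 5 of the 8 libraries in turn (0.04 to 0.13), with DESeq2 size factors (0.09), in DESeq2's Wald test (0.09) and with no filter beyond 1 count (0.10). Cox4i1, the common form of subunit IV, was called in no comparison, and its paralog Cox4i2 stayed below 1 CPM.

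**Figure D5:**
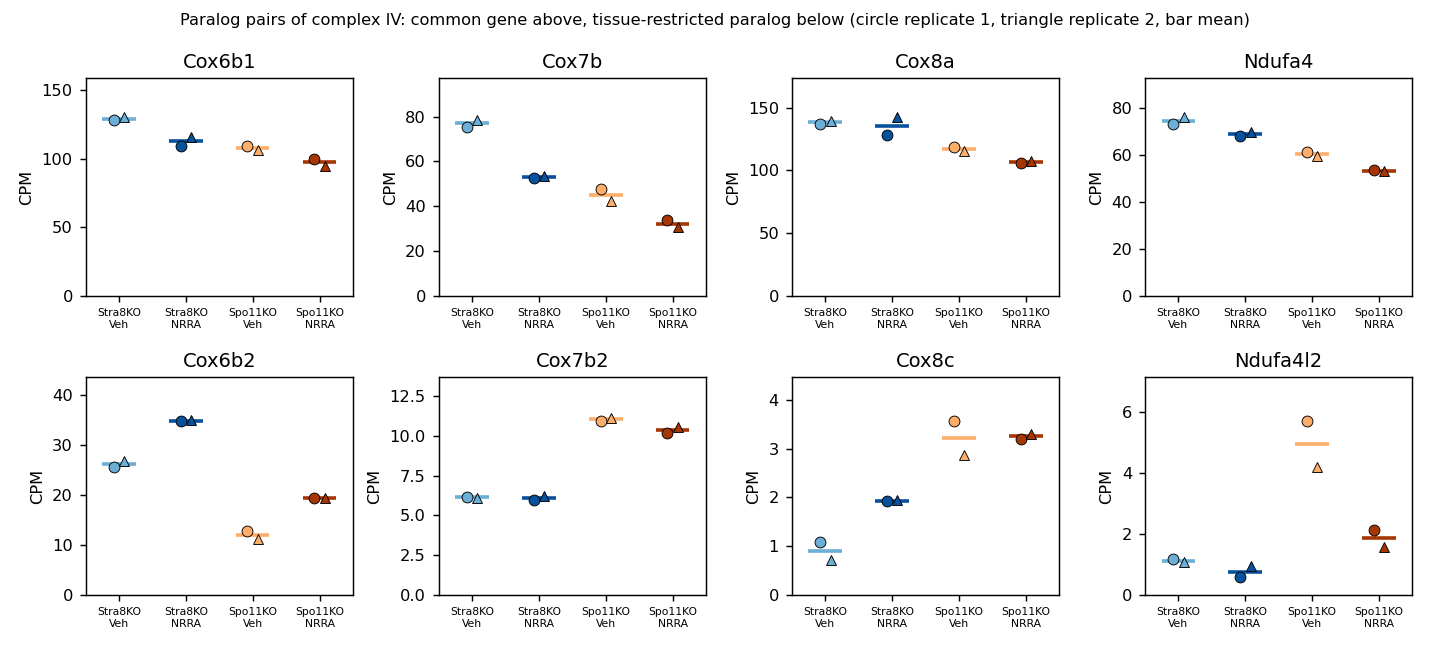
CPM in the 8 libraries for 4 common complex IV subunits (upper row) and a tissue-restricted paralog of each (lower row), by group, with circles for replicate 1, triangles for replicate 2 and bars for group means; each vertical axis starts at 0. Cox6b2 and Cox6b1 move in opposite directions with NRRA in Stra8KO, and Cox7b2, Cox8c and Ndufa4l2 are lower in Stra8KO than in Spo11KO while the genes above them are higher.

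Within complex I, subunits that sit together in the assembled complex moved apart. Ndufv1, Ndufv2 and Ndufv3 form the NADH-binding module. Ndufv3 rose with NRRA in Stra8KO from 49.1 and 49.3 CPM to 59.8 and 59.1 CPM, a log2 fold change of 0.27 ± 0.06 (edgeR adjusted p = 0.00022). In Spo11KO it was at 38.4 and 40.3 CPM in Veh and 36.7 and 33.7 CPM in NRRA (-0.16 ± 0.06, adjusted p = 0.027), and that call was lost under total counts (-0.07, adjusted p = 0.36), without Spo11KO Veh replicate 2 (-0.14, 0.13) and without Spo11KO NRRA replicate 2 (-0.12, 0.22). Ndufv2 fell in Stra8KO from 49.7 and 48.2 CPM to 38.6 and 37.8 CPM (-0.36 ± 0.06, adjusted p = 5.9e-06) and was at 48.2 and 44.3 CPM against 46.5 and 46.0 CPM in Spo11KO. Ndufv1 did the reverse: it was at 117 and 118 CPM against 109 and 118 CPM in Stra8KO, and fell from 168 and 167 CPM to 126 and 115 CPM in Spo11KO (-0.48 ± 0.05, adjusted p = 9.5e-13). Ndufaf6, an assembly factor of complex I, fell in Spo11KO from 9.27 and 9.49 CPM to 5.32 and 4.78 CPM (-0.89 ± 0.14, adjusted p = 3.6e-07). Ndufa1, an X-linked accessory subunit, was at 19.5 and 19.3 CPM in Spo11KO Veh and 23.9 and 22.0 CPM in Spo11KO NRRA (0.24 ± 0.08, adjusted p = 0.012). That call was lost without Spo11KO Veh replicate 2 (0.22, adjusted p = 0.063) and without Spo11KO NRRA replicate 1 (0.17, 0.16), and the smaller rise of Ndufa3 (0.20 ± 0.08) was lost without those same libraries (0.06 and 0.11, adjusted p = 0.64 and 0.38). Ndufb11, also on the X chromosome, was called in no comparison.

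Between genotypes, nuclear members were called less often than all genes under TMM, and the direction of the calls was set by the scaling. In Veh, 30 of 92 nuclear genes (32.6%) were higher and 17 (18.5%) lower in Stra8KO than in Spo11KO (median 0.064). That is 51.1% called, against 62.3% of all genes (31.6% higher and 30.7% lower). In NRRA, 37 (40.2%) were higher and 17 (18.5%) lower (median 0.074). That is 58.7% called, against 64% of all genes (35% higher and 28.9% lower). With libraries scaled by total counts these splits became 19 higher and 30 lower in Veh, and 16 higher and 43 lower in NRRA, as the median of all genes moved by -0.1131 and -0.2068. The split of all genes under that scaling was not counted, so these numbers do not show whether members differ from it. Measured from the median of all genes, the nuclear median was 0.063 in Veh and 0.008 in NRRA (0.062 and 0.008 under total counts). Single libraries moved it more, from 0.013 without Spo11KO Veh replicate 2 to 0.094 without replicate 1 in Veh, and from -0.025 without Spo11KO NRRA replicate 2 to 0.060 without Stra8KO NRRA replicate 1 in NRRA. With trends in GC content and length removed the value in NRRA was -0.030, so its sign is not settled. Of the 13 mt- genes, 0 were higher and 5 lower in Veh, and 1 higher and 4 lower in NRRA (38.5% called in each). Total counts gave 0 and 6, and 0 and 7, for these genes. Their medians from the median of all genes were -0.244 and -0.237. Over single libraries these ran from -0.350 without Spo11KO Veh replicate 1 to -0.150 without replicate 2 in Veh, and from -0.309 to -0.175 in NRRA. With trends in GC content and length removed they were -0.170 and -0.058, where the median of the mt- genes in NRRA was itself 0.0099. In Veh, mt-Cytb (-0.53 ± 0.05), mt-Nd2 (-0.47 ± 0.08), mt-Nd4 (-0.39), mt-Co1 (-0.34) and mt-Nd1 (-0.17 ± 0.04) were lower in Stra8KO, with edgeR adjusted p from 2.3e-13 for mt-Nd4 to 0.0015 for mt-Nd2. In NRRA, mt-Nd1 was 0.10 ± 0.04 higher in Stra8KO (adjusted p = 0.039), and this became -0.11 under total counts. That call was also lost without either Stra8KO Veh library (0.10 in both, adjusted p = 0.056 and 0.055), without Stra8KO NRRA replicate 1 (0.05, 0.36) and without Spo11KO NRRA replicate 1 (0.02, 0.72).

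The largest genotype differences were in the low-abundance paralogs. Ndufa4l2 was lower in Stra8KO, with log2 differences of -2.14 ± 0.26 in Veh and -1.28 ± 0.32 in NRRA (edgeR adjusted p = 4e-10 and 0.00051). Cox8c gave -1.84 ± 0.27 and -0.75 ± 0.23, and Cox7b2 gave -0.85 ± 0.13 and -0.77 ± 0.13, all of them called lower. Cox7a1 was lower in Veh, at -0.93 ± 0.32 (adjusted p = 0.0098), which was lost without Stra8KO Veh replicate 2 (-0.75, adjusted p = 0.098) and without Spo11KO Veh replicate 1 (-0.52, 0.27). Cox6b2 went the other way, higher in Stra8KO by 1.12 ± 0.09 in Veh and 0.85 ± 0.08 in NRRA (edgeR adjusted p = 1.5e-15 and 1.3e-13). The common forms Cox7b, Cox8a, Ndufa4 and Cox6b1 were all higher in Stra8KO in Veh, by 0.77, 0.24, 0.30 and 0.26. Under NRRA their values were 0.73, 0.35, 0.37 and 0.21, and the value of Cox6b1 came to 0.00 under total counts. Beside these values, the summed germ cell markers were lower and the summed fibroblast markers higher in every Stra8KO library than in the Spo11KO libraries in the same medium, with 10 of 10 germ cell markers called lower and 16 of 16 fibroblast markers called higher, and their part in the genotype differences was not tested.

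The NRRA effect itself differed between genotypes for 17 of 92 nuclear genes (18.5%), below the 25.1% of all genes. The value in Stra8KO was higher for 11 (12%) and lower for 6 (6.52%), against 14.8% and 10.3% of all genes. Under total counts the split was 6 and 18, without a count over all genes beside it. Complex V held 4 of the 11, namely Atp5g1, Atp5e, Atp5d and Atp5b. The call for Atp5b (0.15 ± 0.05, edgeR adjusted p = 0.021) was lost under total counts (0.05, adjusted p = 0.44), without Stra8KO Veh replicate 2 (0.12, 0.17), without Stra8KO NRRA replicate 1 (0.13, 0.11) and without Spo11KO Veh replicate 1 (0.13, 0.07). In complex I, Ndufv1 (0.42 ± 0.07), Ndufv3 (0.44 ± 0.09), Ndufv2 (-0.36 ± 0.09) and Ndufc2 (-0.41 ± 0.10) differed, at edgeR adjusted p of 1.2e-06, 0.00011, 0.0013 and 0.0013. Among mt- genes, 4 differed upward (mt-Nd1, mt-Cytb, mt-Nd4 and mt-Co1) and 1 downward (mt-Atp8), against 2 and 1 under total counts, and DESeq2's Wald test called 0 of the 13 for this difference, with 5 at an unadjusted p under 0.05 in edgeR. Leaving out Stra8KO Veh replicate 1, Stra8KO NRRA replicate 1 or Spo11KO NRRA replicate 1 gave 3 calls among the mt- genes each, and leaving out Spo11KO NRRA replicate 2 gave 8. Without Stra8KO Veh replicate 2 the nuclear count was 10. The number of mt- genes called with NRRA in Stra8KO was also set by single libraries, with 3 without Stra8KO NRRA replicate 1, 2 and 4 without Spo11KO Veh replicates 1 and 2, and 7 without either Spo11KO NRRA library.

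Genes that act around the respiratory chain are counted in what follows against the same shares of all genes as above, with NRRA 21.6% higher and 20.2% lower in Stra8KO and 24.5% and 25.5% in Spo11KO. These shares hold for TMM, and splits given under total counts have no such background. For mitochondrial DNA expression (27 tested genes), 2 rose (7.41%) and 7 fell (25.9%) with NRRA in Stra8KO and 3 rose (11.1%) and 14 fell (51.9%) in Spo11KO, the latter 5 and 7 under total counts. The falls in Stra8KO numbered 4 without Stra8KO Veh replicate 1. In Veh 2 were higher (7.41%) and 20 lower (74.1%) in Stra8KO than in Spo11KO (median -0.360), against 31.6% and 30.7% of all genes. In NRRA 2 were higher (7.41%) and 18 lower (66.7%; median -0.195), against 35% and 28.9% of all genes. Total counts gave 2 and 22 in Veh and 1 and 23 in NRRA, and without Stra8KO NRRA replicate 2 the 18 became 10. Lrpprc, which stabilises mitochondrial mRNAs, was at 128 and 124 CPM in Stra8KO Veh, 114 and 113 CPM in Stra8KO NRRA, 184 and 183 CPM in Spo11KO Veh, and 141 and 140 CPM in Spo11KO NRRA. All 4 groups stood apart, with a fall of 0.39 ± 0.04 with NRRA in Spo11KO and a genotype difference of -0.54 ± 0.04 in Veh (edgeR adjusted p = 2.5e-11 and 7.5e-16). Tfam, the mitochondrial transcription factor, was lower in Stra8KO in Veh, at -0.38 ± 0.08 (adjusted p = 2.2e-05). Polrmt gave 0.12 ± 0.06 with NRRA in Spo11KO and -0.20 ± 0.07 in Stra8KO (adjusted p = 0.009), where the call was lost without Stra8KO Veh replicate 1 (-0.14, 0.22) and without Stra8KO NRRA replicate 2 (-0.19, 0.069). The RNA-binding partner of Lrpprc, Slirp, was called in no comparison. The mitochondrial rRNA genes, 2 tested, were called in no comparison either.

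Among 9 nuclear regulators, 2 rose (22.2%) and 1 fell (11.1%) with NRRA in Stra8KO, shares near or below those of all genes. In Spo11KO 1 rose (11.1%) and 4 fell (44.4%), which became 2 and 1 under total counts, while 1 fell without Spo11KO Veh replicate 1. Nrf1, whose motif was counted above, fell with NRRA by 0.29 ± 0.07 and 0.44 ± 0.06 (edgeR adjusted p = 0.00026 and 1e-08) and was lower in Stra8KO than in Spo11KO, at -0.58 ± 0.06 in Veh and -0.43 ± 0.06 in NRRA. Esrra was higher in Stra8KO by 0.53 ± 0.07 in Veh and 0.55 ± 0.06 in NRRA. Gabpa was called only for the genotype in NRRA (-0.20 ± 0.05), a call lost without Spo11KO NRRA replicate 2 (-0.11, adjusted p = 0.1) and with trends in GC content and length removed (-0.08). Ppargc1a lay at 0.253 to 1.35 CPM and Ppargc1b at 1.26 to 3.52 CPM.

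Of 14 genes of the citric acid cycle, 1 rose (7.14%) and 9 fell (64.3%) with NRRA in Stra8KO (median -0.217), where 21.6% and 20.2% of all genes did so. In Spo11KO 2 rose (14.3%) and 10 fell (71.4%; median -0.300), against 24.5% and 25.5% of all genes, and total counts gave 2 and 8. Idh2, the mitochondrial NADP-dependent isocitrate dehydrogenase, was the gene that rose in both, from 23.2 and 23.1 CPM to 35.6 and 33.8 CPM in Stra8KO and from 14.4 and 14.6 CPM to 19.5 and 17.8 CPM in Spo11KO (0.58 ± 0.08 and 0.35 ± 0.09). Dlst, a subunit of the oxoglutarate dehydrogenase complex, fell by 0.38 ± 0.04 and 0.40 ± 0.04. Of 77 mitochondrial ribosomal protein genes, 3 rose (3.9%) and 20 fell (26%) in Stra8KO, and 2 rose (2.6%) and 45 fell (58.4%) in Spo11KO, where total counts gave 7 and 29. The 20 falls in Stra8KO became 11 without Stra8KO Veh replicate 2 and 13 without either Stra8KO NRRA library. Mrps6 fell most, from 17.0 and 18.1 CPM to 8.01 and 6.83 CPM in Stra8KO and from 16.8 and 17.5 CPM to 6.02 and 7.34 CPM in Spo11KO. Of 42 further assembly factors, 4 rose (9.52%) and 7 fell (16.7%) in Stra8KO, and 7 rose and 7 fell (16.7% each) in Spo11KO, all below the shares of all genes, and total counts gave 10 and 4 in Spo11KO. The outermost called values in this group were 0.41 ± 0.11 for Uqcc3 of complex III and -0.58 ± 0.12 for Coa6 of complex IV in Stra8KO, and 0.57 ± 0.15 for Sdhaf4 of complex II and -0.66 ± 0.17 for Sco2 of complex IV in Spo11KO. The call for Uqcc3 was lost without Stra8KO Veh replicate 1 (0.34, edgeR adjusted p = 0.065). Of 13 coenzyme Q synthesis genes, 4 rose (30.8%) and 1 fell (7.69%) in Stra8KO, and 2 rose (15.4%) and 3 fell (23.1%) in Spo11KO (7 and 2 under total counts), with Coq8a raised by 0.57 ± 0.11 and 1.03 ± 0.08.

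Of 13 electron carriers and transporters, 1 rose (7.69%) and 7 fell (53.8%) with NRRA in Stra8KO, against 21.6% and 20.2% of all genes. In Spo11KO 2 rose (15.4%) and 9 fell (69.2%), against 24.5% and 25.5%, and total counts gave the same numbers in each genotype. Somatic cytochrome c, Cycs, fell by 0.53 ± 0.07 and 0.41 ± 0.07 (edgeR adjusted p = 5.7e-09 and 8.1e-07), while the testis form Cyct gave 0.14 and 0.01 and was lower in Stra8KO than in Spo11KO, at -0.80 ± 0.10 in Veh. The ADP/ATP carriers, which exchange the product of complex V across the inner membrane, differed among themselves. Slc25a4 was at 289 and 291 CPM in Stra8KO Veh, 275 and 278 CPM in Stra8KO NRRA, 151 and 155 CPM in Spo11KO Veh, and 135 and 135 CPM in Spo11KO NRRA, which is 0.92 ± 0.04 and 1.03 ± 0.04 higher in Stra8KO. Slc25a5 was at 129 and 134 CPM, 95.2 and 93.1 CPM, 108 and 121 CPM, and 55.3 and 56.8 CPM in the same order, and fell with NRRA by 0.48 ± 0.05 and 1.03 ± 0.05 (edgeR adjusted p = 1.6e-11 and 6.7e-23). The germ cell carrier Slc25a31 was at 50.4 and 48.3 CPM, 62.7 and 61.5 CPM, 105.2 and 108 CPM, and 118 and 121 CPM, and was lower in Stra8KO, at -1.11 ± 0.05 in Veh and -0.94 ± 0.05 in NRRA. Slc25a4 and Slc25a31 thus differed between genotypes in opposite directions, as Cox7b and Cox7b2 did. Not all pairs did so, as Cox6b1 and its testis paralog Cox6b2 were both higher in Stra8KO in Veh.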

How the data were processed

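RNA of SSC cultures was measured by mRNA sequencing in 8 libraries. The authors deposited a table of raw read counts per gene, with 1 column per library, not normalized and not pooled, and 0 columns were left unused. Submitters' processing notes name bcl2fastq, STAR 2.6.1c, featureCounts 1.6.4 and mm10. The annotation release, the strand setting and the treatment of reads that fit several places are not given in the sources used here. Reads of near-identical or overlapping genes may therefore be split or dropped. For the 113 symbols with several gene IDs, list genes were taken from the ID with more counts.

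Counts were tested in edgeR 4.0.16 (R 4.3.3) with filterByExpr (20588 of 55421 genes, 99.88% of counts), TMM scaling, a group-means model over the 8 libraries and the robust quasi-likelihood F test (two-sided), adjusted by Benjamini-Hochberg across all tested genes. The common biological coefficient of variation was 3.39%. The SE of a log2 fold change was its size divided by the square root of F. TMM factors were 0.943 to 0.949 in Stra8KO and 1.02 to 1.10 in Spo11KO, which is why total counts move the genotype splits. Library totals of 20960794 to 27038868 set the precision. Libraries of a group differed beyond counting noise (mean chi-square per gene 1.86 to 4.12). Alternatives were DESeq2 1.42.0 (Wald test, and its size factors in edgeR), total counts, TMM without mt- genes, other filters, only the libraries compared, a replicate block, removal of trends with GC content and length (mgcv 1.9.3), stricter calls and leaving out each library. A ratio with 5 mt- genes was added after the data were seen. Fits were tested on simulated data.

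Members and gene lists were chosen with earlier results of these data known. Genes were named by rule: all mt- genes, per comparison the 3 largest called rises and falls (average log2 CPM of 1 or more), paralogs, complex II, X-linked members, chosen regulators and carriers, and the largest rise and fall of each list. Atp5a1, Atp5c1, Atp5d, Atp5e, Atp5h, Atp5o, Atp5j2, Atp5mpl, Ndufv1, Ndufb4, Ndufb4c, Atp5l and Uqcr11 were named after their values were seen. Motifs were exact matches on both strands.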

Additional observations from a re-analysis of the deposited data

Results flagged for a closer look

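The results here were flagged because the NRRA effect differed between genotypes in edgeR's interaction test (effect in Stra8KO minus effect in Spo11KO, log2, adjusted p under 0.05 over all tested genes). It did so for 17 of 92 nuclear members (18.5%), below the 25.1% of all genes, and for 5 of 13 mt- members (38.5%). No group had enough libraries for a test of single libraries that stand apart.

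Among mt- genes the difference was 0.27 for mt-Nd1, 0.29 for mt-Cytb, 0.18 for mt-Nd4, 0.16 for mt-Co1 and -0.70 for mt-Atp8. DESeq2's Wald test called none of these 5. For mt-Nd4 and mt-Co1 the call was also lost under total counts (0.08 and 0.07), and for mt-Atp8 after removal of GC and length trends (-0.46). Single libraries mattered too: mt-Nd4 was not called without Stra8KO Veh replicate 1 (0.16), Stra8KO NRRA replicate 1 (0.13) or Spo11KO NRRA replicate 1 (0.13), mt-Co1 not without Stra8KO NRRA replicate 1 (0.12), Spo11KO Veh replicate 2 (0.13) or Spo11KO NRRA replicate 1 (0.11), and mt-Atp8 not without 5 of the 8 libraries in turn (-0.76 to -0.51).

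Among nuclear members the difference was 0.72 for Atp5g1, 0.15 for Atp5b, 1.09 for Cox8c, 0.18 for Cox6a1, -0.25 for Cox6c, -0.37 for Ndufa1, -0.36 for Ndufv2, 0.44 for Ndufv3, -0.41 for Ndufc2 and 0.59 for Ndufaf6. The call for Atp5g1 was kept under every alternative run. The call for Cox8c was lost without Stra8KO Veh replicate 2 (0.83), without either Stra8KO NRRA library (1.09 and 1.08) and without Spo11KO Veh replicate 1 (0.92). The call for Atp5b was lost under total counts (0.05), and without Stra8KO Veh replicate 2 (0.12), Stra8KO NRRA replicate 1 (0.13) or Spo11KO Veh replicate 1 (0.13). The call for Cox6c was lost without Spo11KO Veh replicate 2 (-0.20), that for Ndufa1 without Stra8KO Veh replicate 2 (-0.29) or Spo11KO NRRA replicate 1 (-0.32), and that for Cox6a1 under total counts (0.08), with DESeq2 size factors (0.14) and without 5 of the 8 libraries in turn (0.10 to 0.19). DESeq2's Wald test called none of Cox8c, Atp5b, Cox6a1 and Ndufaf6 for this difference. The call for Ndufaf6 was lost under total counts (0.49), and without each library other than Stra8KO NRRA replicate 1 and Spo11KO NRRA replicate 1 (0.43 to 0.63).

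Among the surrounding genes, those with a less negative or more positive effect in Stra8KO were Lrpprc (0.23), Pnpt1 (0.30), Tbrg4 (0.46) and Fastkd1 (0.32) of mitochondrial RNA handling, Gabpb2 (0.29), the carrier Slc25a5 (0.55), fumarase Fh1 (0.33), and the mitochondrial ribosomal genes Mrpl14 (0.66), Mrpl55 (0.58) and Mrpl58 (0.71). Those with the opposite sign were Polrmt (-0.33), Coq8a (-0.46), Sdhaf4 (-0.63), Etfdh (-0.28), Sucla2 (-0.23) and Mrpl54 (-0.40). Under total counts the calls for Lrpprc (0.14) and Fastkd1 (0.23) were lost, and with no filter beyond 1 count as well (0.17 and 0.26). DESeq2's Wald test also left out Fastkd1, Pnpt1, Sdhaf4, Etfdh and Sucla2. Without single libraries, the calls for Polrmt (-0.26) and Coq8a (-0.43) were lost in the absence of Stra8KO Veh replicate 1, and that for Pnpt1 in the absence of Stra8KO Veh replicate 1 (0.26) or Spo11KO NRRA replicate 1 (0.21). The calls for Fastkd1 (0.25 to 0.28), Sdhaf4 (-0.58 to -0.38), Etfdh (-0.25 to -0.23), Sucla2 (-0.24 to -0.17) and Mrpl54 (-0.38 to -0.30) were each lost without 3 to 5 of the libraries in turn.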

How the results depend on the processing

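Most results kept their direction and their side of the threshold. Over alternatives that keep all libraries, 2079 values of named genes did so, 125 kept the direction without passing the threshold and 6 changed sign. All 6 compare Stra8KO with Spo11KO in NRRA: under total counts mt-Nd1 (-0.11), Atp5g2 (-0.0593), Atpif1 (-0.0410), Sdhd (-0.0430) and Atp5b (-0.0111), and with GC and length trends removed mt-Nd4 (0.00988). Total counts place all Spo11KO libraries higher than TMM does, by construction. In the order NRRA in Stra8KO, NRRA in Spo11KO, genotype in Veh, genotype in NRRA and interaction, asking for a change of at least 1.5-fold left 2, 6, 9, 6 and 3 nuclear calls and 0, 0, 0, 1 and 1 mt- calls. Over all 20588 tested genes it left 3673, 4408, 7315, 7749 and 2157 calls. For the interaction, an adjusted p under 0.01 left 8 nuclear calls, DESeq2's Wald test 11 nuclear and 0 mt- calls, and total counts 3 mt- calls. The 1 mt- call for NRRA in Stra8KO became 3 with DESeq2 size factors, 2 with total counts, 6 with no filter beyond 1 count, 2 with the Wald test, 8 with only the libraries compared and 3 with trends removed. The 5 mt- calls for genotype became 8 (no filter) and 10 (only the libraries compared) in Veh and 3 (trends removed) in NRRA. The cause was not tested. The fit with only the libraries of a comparison uses all of them for the interaction and was not run there. Leaving out a library gave 24 to 43, 38 to 48, 37 to 47, 45 to 54 and 10 to 20 nuclear calls and 1 to 7, 5 to 8, 5 to 8, 4 to 7 and 3 to 8 mt- calls. The highest mt- counts came without a Spo11KO NRRA library, and 8 calls for NRRA in Spo11KO came without its replicate 2. Without single libraries, 177 values of named genes no longer passed the threshold and 1815 kept their call. In Stra8KO Veh the mt- share was 1.95% of protein-coding counts. The mean log2 ratio of mt- to nuclear counts in Stra8KO Veh, Stra8KO NRRA, Spo11KO Veh and Spo11KO NRRA was 0.786, 0.779, 1.17 and 0.983 without mt-Co1, mt-Atp8, mt-Atp6, mt-Nd4 and mt-Nd4l, and 0.780, 0.774, 1.17 and 0.978 with 5 mt- genes. In Stra8KO Veh it was 1.52 without assembly factors. Leaving out a library gave shares of 1.86% to 1.89%, 1.67% to 1.80%, 2.49% to 2.66% and 2.10% to 2.31%, and ratios of 1.499 to 1.4996, 1.44 to 1.599, 1.81 to 1.97 and 1.65 to 1.85.

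Replicate numbers are shared between groups, but same-numbered libraries did not deviate together (correlations of -0.0271 to 0.0558), so the numbers were not read as pairs. With the replicate block, nuclear calls were 36, 49, 47, 54 and 18 and mt- calls 1, 5, 7, 6 and 7. Genes under a few CPM, such as mt-Nd3 and Cox8c, limit the detectable change, as their SE of 0.2 to 0.4 shows.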
